A study of Mus musculus with 6 samples.

Results

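The genes of cholesterol synthesis and of its transcriptional control by SREBP2 were followed in stem cells of the mouse intestine given INT-777 or its solvent. The set holds 27 genes out of 54838 listed, from the textbook pathway but chosen with earlier results of these data known. It takes in the enzymes that carry acetyl-CoA to cholesterol, the branch enzyme Ggps1, the transcription factor gene Srebf2 with its partners Scap, Insig1 and Insig2, the sterol carrier Stard4, and the esterifying enzymes Soat1 and Soat2. All 27 passed the filter on low counts, and 15998 genes in all did so.

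The study looked for genes induced in these cells upon stimulation of TGR5, a bile acid receptor of the cell surface, and INT-777 is a TGR5 agonist made from a bile acid. The INT-777 group holds 3 cultures given 30 µM INT-777, and the DMSO group holds 3 cultures given DMSO alone. All cells of both groups came from Lgr5-eGFP-IRES-CreERT2 mice (strain label B6.129P2-Lgr5tm1(cre/ERT2)Cle/J), whose reporter is carried at the locus of Lgr5, the receptor that marks crypt base stem cells. Cells with high reporter signal were sorted on each of 3 days from a pool of 4 mice and embedded in Matrigel, in medium with the Notch ligand peptide JAG-1 and the GSK3 inhibitor CHIR99021, and a culture of each group was taken from each pool. The ages of the mice were not used here, and the pooling leaves no view of single animals. The treatment time is 12 h in the sample labels and 16 h in the design text, which the counts cannot settle.

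Each library held 45682340 to 47905087 read pairs assigned to genes. Gpbar1, the gene of TGR5, was close to absent, with 4, 1 and 4 read pairs on days 1, 2 and 3 with INT-777 and 4, 0 and 5 with DMSO. Day 3 stood apart from the other days: the biological coefficient of variation was 2.7% (INT-777) and 2.0% (DMSO) between days 1 and 2, and 16.2 to 19.4% between day 3 and either of them. All 8 stem cell markers passed the filter, and their summed level was 2143, 2119 and 1689 CPM (read pairs scaled to the size of the library) on days 1, 2 and 3 with INT-777 and 2514, 2479 and 2089 CPM with DMSO, lower with INT-777 on each day. In the fit with the day as a term 6 of the 8 were lower and 2 higher, where 10.3% of all genes were lower and 11.1% higher. The sum of 7 Paneth cell markers was 2251 to 3544 CPM with INT-777 and 3432 to 3887 CPM with DMSO, with all 7 fitted below 0 and 4 lower in that fit. The sum of 8 goblet cell markers was 3001, 2901 and 12450 CPM on days 1, 2 and 3 with INT-777 and 5661, 5565 and 28229 CPM with DMSO, with all 8 fitted below 0 and 7 of them lower once the day was a term of the fit. The sum of 10 enterocyte markers was 1126 to 1380 CPM with INT-777 and 1483 to 1851 CPM with DMSO. Of the 9 that could be tested, 6 were fitted below 0 and 3 above it, with 4 lower and 1 higher in the fit with the day as a term. The sum of 7 tuft cell markers was 29.1 to 39.8 CPM with INT-777 and 25.3 to 34.9 CPM with DMSO. It was higher with INT-777 on each day, and of the 5 tested 4 were fitted above 0 and 1 below it. The sum of 8 enteroendocrine markers, in day order, was 607, 623 and 2217 CPM with INT-777 and 647, 658 and 2833 CPM with DMSO. Of these 8, 7 were fitted below 0 and 1 above it. The sum of 12 immune markers was 5.72 to 8.97 CPM with INT-777 and 5.06 to 9.33 CPM with DMSO, with none of the 12 at 0 throughout. The part of these differences in the results below was not tested, and in bulk RNA fewer cells of a type and less RNA per cell cannot be told apart.

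Cholesterol is built from acetyl-CoA through mevalonate, which is turned into isoprenoid units, then into squalene, then into lanosterol, which a series of enzymes in the endoplasmic reticulum trims to cholesterol. The transcription factor SREBP2 raises the genes of the pathway when membrane cholesterol is low: Scap escorts the precursor to the Golgi, where proteases release the active fragment, and the Insig proteins hold Scap back when sterols are plentiful. Dividing crypt cells need cholesterol for new membranes, and the intestine both makes cholesterol and takes it up from bile and diet.

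The pathway genes lay slightly lower with INT-777, with the lowest median in the mevalonate arm (−0.27), against −0.02 for the 4 control genes. Of these 4, Srebf2 (−0.09) and Insig1 (−0.12) lay below 0, and Scap (0.05) and Insig2 (0.07) above it. The difference between the mevalonate arm and the control genes was not tested. Of the 27 genes, 24 had a log2 change (INT-777 over DMSO) below 0 and 3 above it, with a median of −0.11, against a median of 0.00 over all genes tested, of which 49.3% lay below 0. Pmvk was the single member past the threshold (edgeR's quasi-likelihood test with treatment as the only term, Benjamini-Hochberg adjusted p under 0.05 over all 15998 genes), which is 3.70% of the members against a background of 1.45% of all genes (0.688% higher and 0.763% lower). Because the replicate number is the day of the sort, the same test was also fitted with the day as a block. With that block 10 members were lower and none higher, 37.0% of the members. The background in the same fit was 21.3% of all genes, 10.3% of them lower. Both counts depend on the libraries used. Without the block no member was lower once DMSO replicate 1, DMSO replicate 2, INT-777 replicate 1 or INT-777 replicate 2 was left out. Those runs called only 0.0486 to 0.116% of all genes. Without DMSO replicate 3, 4 members were lower (1.68% of all genes called), and 18 without both day 3 libraries (26.8% of all genes called). With the block 17 were lower without day 3 (24.1% of all genes called). DESeq2 without the block called 8 lower (5.83% of all genes called). The 10 were Acat2, Hmgcs1, Pmvk, Mvd and Fdps of the mevalonate arm, Lss, and Cyp51, Tm7sf2, Nsdhl and Dhcr7 of the later steps. The changes were small, between −0.45 and −0.18 on the log2 scale for these 10.

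**Figure D1:**
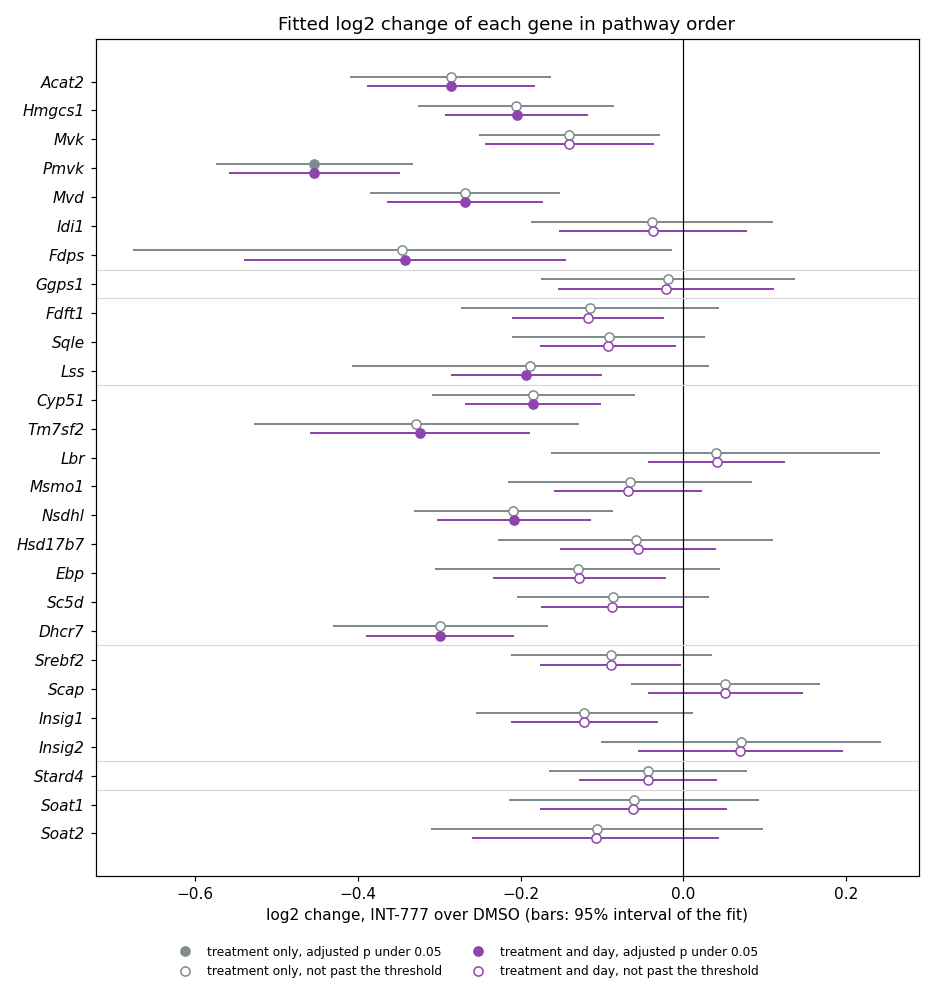
Fitted log2 change of each gene (INT-777 over DMSO, x axis) with its 95% interval, in pathway order from top to bottom, with treatment alone (grey) and with treatment and day (purple). Filled points passed an adjusted p under 0.05. The filled purple points are the 10 genes lower with the day block, between −0.45 and −0.18, and the filled grey point is Pmvk.

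The libraries of the groups did not overlap for 11 members, all lower with INT-777, which is 40.7% of them against a background of 24.5% of all genes (11.0% lower). INT-777 lay below DMSO on all 3 days for 19 members and above it on all 3 days for 1, Insig2, while 52.0% of all genes kept 1 sign on every day and 25.3% did so below 0. The median difference over the 27 within days 1, 2 and 3 was −0.14, −0.13 and −0.13 on the log2 scale, against 0.01, 0.01 and −0.00 over all genes.

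**Figure D2:**
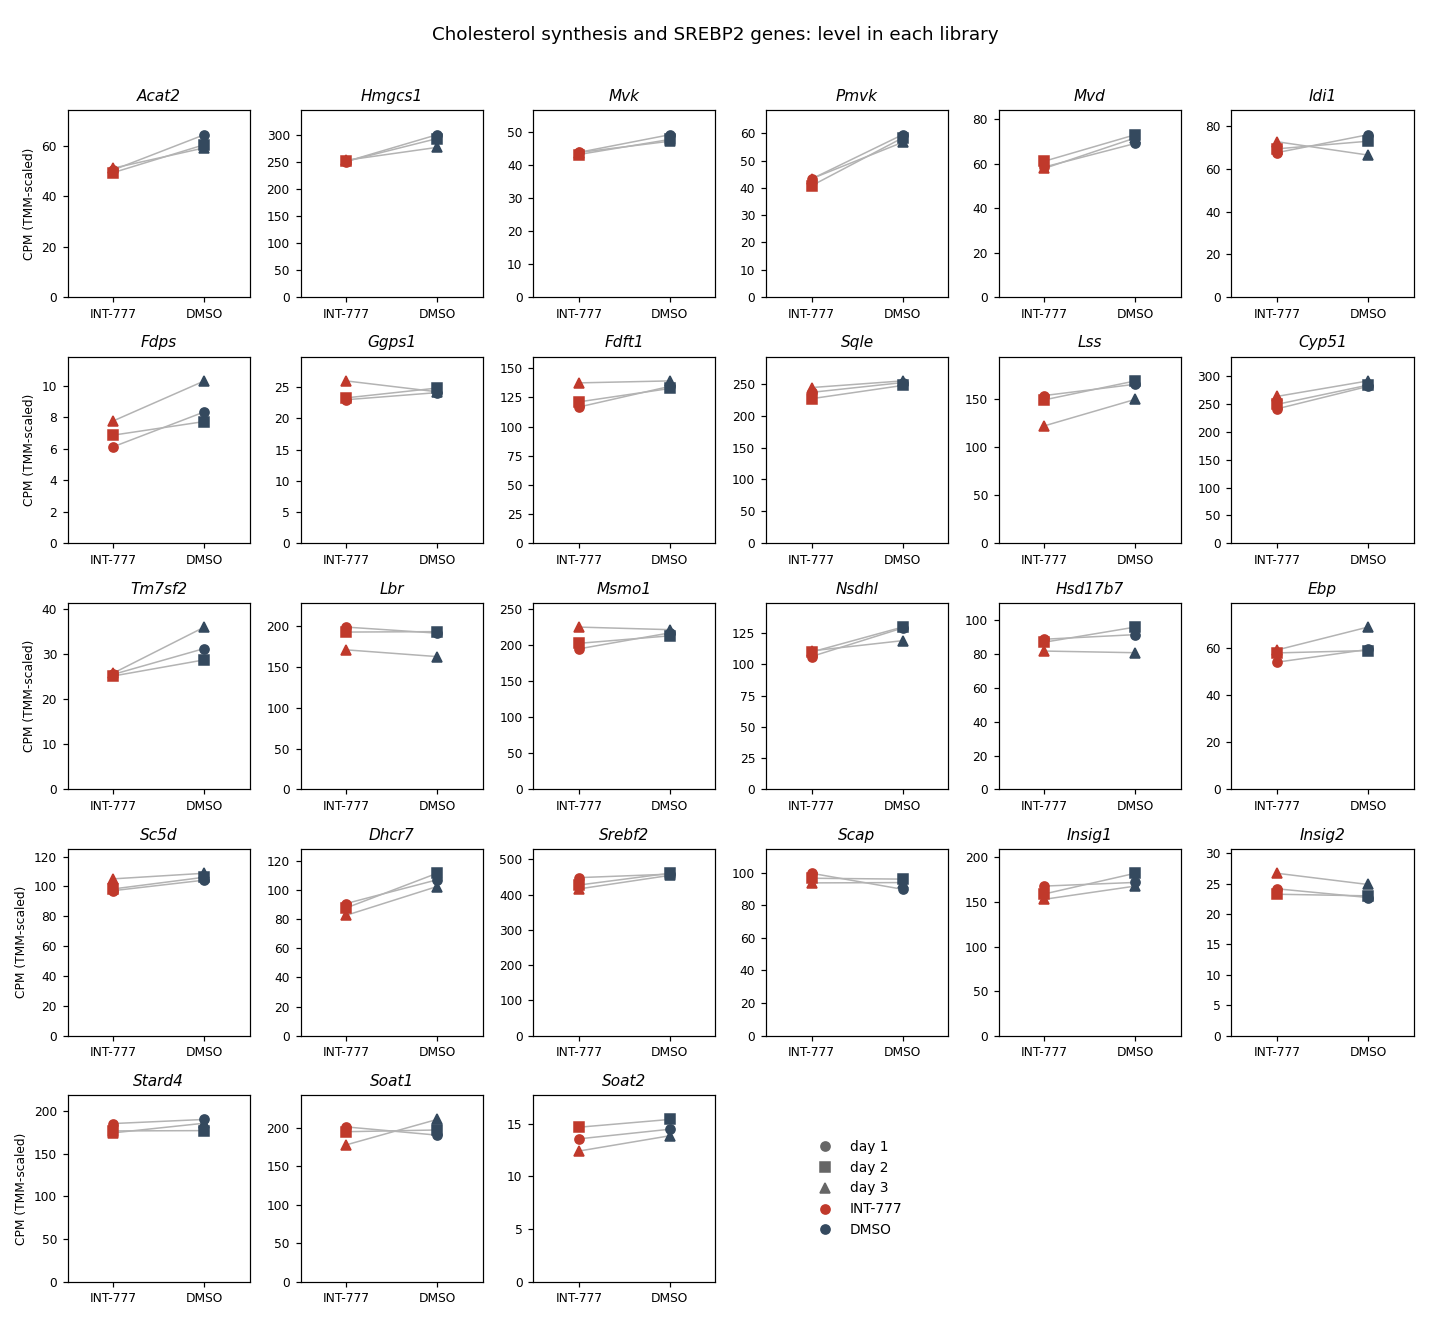
Level of each of the 27 genes in every library, in CPM after TMM scaling (y axis from 0), with INT-777 left and DMSO right. Marker shapes give the day and grey lines join the libraries of 1 day. Pmvk lies at 40.8 to 43.4 CPM with INT-777 and 56.7 to 59.5 CPM with DMSO, and most other genes differ far less.

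The mevalonate arm makes the isoprenoid units and joins them into farnesyl diphosphate. All 7 of its genes had log2 changes below 0, with a median of −0.27. With the day block 5 of the 7 were lower, in a fit where 10.3% of all genes were.

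Pmvk, phosphomevalonate kinase (chromosome 3, 89454541 to 89469013, GRCm38), had 43.3, 40.8 and 43.4 CPM on days 1, 2 and 3 with INT-777, against 59.5, 58.3 and 56.7 CPM with DMSO. Every INT-777 library lay below every DMSO library by a wide margin relative to the spread within a group. Pmvk fell to 0.730 times its DMSO level, a log2 change of −0.45 ± 0.05 (SE, edgeR adjusted p = 0.0120). The difference within days 1, 2 and 3 was −0.46, −0.52 and −0.39. Without any single library its log2 change stayed between −0.48 and −0.43. The adjusted p was 0.0926 without DMSO replicate 1, 0.0811 without DMSO replicate 2, 0.0824 without INT-777 replicate 1 and 0.116 without INT-777 replicate 2, so without the block its call rests on each of these 4 libraries of days 1 and 2. With the day block the adjusted p was 1.21e-05, and Pmvk was still called there when day 1, day 2 or day 3 was left out.

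Acat2, the cytosolic thiolase that joins acetyl-CoA units at the entry to the pathway (chromosome 17, 12942890 to 12960747), had 50.5, 49.4 and 51.2 CPM with INT-777 and 64.5, 60.5 and 59.3 CPM with DMSO. Its groups did not overlap, and edgeR gave a log2 value of −0.29 ± 0.05 (adjusted p = 0.0522, and 0.000682 with the day block). Acat2 has a close copy, Acat3, with 145 read pairs over all 6 libraries, and how pairs that match both were counted is not stated.

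Hmgcs1, the cytosolic HMG-CoA synthase (chromosome 13, 119690379 to 119708260), had 251, 251 and 253 CPM with INT-777 and 301, 293 and 277 CPM with DMSO. The INT-777 libraries were nearly identical and all lay below the DMSO libraries. Its log2 change was −0.21 ± 0.05 (edgeR adjusted p = 0.120, and 0.00228 with the day block). An antisense gene covers 12.1% of its exon length and held 11 to 24 read pairs a library.

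Mvd, mevalonate diphosphate decarboxylase (chromosome 8, 122433601 to 122443422), had 58.5, 61.1 and 57.9 CPM with INT-777 and 69.1, 73.1 and 71.6 CPM with DMSO. The groups were clear of each other, and the log2 change was −0.27 ± 0.05 (edgeR adjusted p = 0.0527, and 0.000618 with the day block). Acat2 and Mvd thus lay just outside the threshold in the fit without the block.

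Mvk, mevalonate kinase (chromosome 5, 114444269 to 114460591), had 43.9, 43.3 and 43.9 CPM with INT-777 and 49.3, 47.8 and 47.3 CPM with DMSO. These groups did not overlap either, but the gene passed in neither fit, with a log2 difference of −0.14 ± 0.05 (edgeR adjusted p = 0.216, and 0.0530 with the block). Idi1, which isomerises isopentenyl diphosphate, had 67.7, 69.5 and 72.8 CPM with INT-777 and 76.1, 73.0 and 66.6 CPM with DMSO. Its groups overlapped, with INT-777 below DMSO on days 1 and 2 and above it on day 3, and the fitted value of −0.04 ± 0.06 had a 95% interval of −0.19 to 0.11.

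Fdps, farnesyl diphosphate synthase (chromosome 3, 89093588 to 89101959), had 6.13, 6.86 and 7.77 CPM with INT-777 and 8.34, 7.73 and 10.3 CPM with DMSO. INT-777 was lower on every day although the groups overlapped, and the log2 change was −0.35 ± 0.14 (edgeR adjusted p = 0.288, and 0.0156 with the day block). This count is uncertain: another annotated gene of the same strand, Gm43738, covers 26.7% of the Fdps exon length and held no read pair in any library. Ggps1, which extends farnesyl to geranylgeranyl diphosphate, had 23.0, 23.3 and 26.0 CPM with INT-777 and 24.1, 24.9 and 24.3 CPM with DMSO, a log2 change of −0.02 ± 0.07 with a 95% interval of −0.18 to 0.14.

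SREBP2 binds sterol regulatory elements in promoters, usually with NF-Y (which binds CCAAT) and Sp1 (GGGCGG) nearby. Promoter windows from RefSeq (GRCm38.p6, 250 bases before to 50 after each start) were found for 22 of the 27 genes and searched on both strands. A sterol element of 10 letters was in no member window. Only 0.0542% of tested genes hold it, so its absence from the 22 genes says little. Exact matches alone were counted, which cannot tell whether variants of this element lie in the member windows. The shorter CACCCCAC, part of sterol elements, was in those of Acat2 and Hmgcs1, 9.09% of the member genes and 3.78% of tested genes, and in Hmgcs1 it lies within a match to TCACNCCAC, which 1.44% of tested genes hold. CCAAT was present in 20 of the 22, against 42.6% of tested genes, and GGGCGG in 20 of the 22, against 67.0%. These are matches of letters and not measured sites. Of the 5 mevalonate arm genes with separated groups, Pmvk is not shown. Its windows held 1 CCAAT, and neither GGGCGG nor any of the sterol element letters. The windows of the other 4 are shown in the sense direction of the gene, with capitals for CACCCCAC, TCACNCCAC and CCAAT on either strand (ATTGG is CCAAT read from the other strand). They are chr17:12960676-12960975 (minus strand) for Acat2, chr13:119690101-119690400 (plus strand) for Hmgcs1, chr5:114444019-114444318 (plus strand) for Mvk and chr8:122443373-122443672 (minus strand) for Mvd.
Acat2: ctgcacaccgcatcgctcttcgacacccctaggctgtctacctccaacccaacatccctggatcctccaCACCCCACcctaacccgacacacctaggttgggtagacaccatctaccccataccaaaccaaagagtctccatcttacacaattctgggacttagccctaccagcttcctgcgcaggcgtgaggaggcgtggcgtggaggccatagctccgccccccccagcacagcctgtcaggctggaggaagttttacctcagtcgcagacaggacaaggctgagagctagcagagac
Hmgcs1: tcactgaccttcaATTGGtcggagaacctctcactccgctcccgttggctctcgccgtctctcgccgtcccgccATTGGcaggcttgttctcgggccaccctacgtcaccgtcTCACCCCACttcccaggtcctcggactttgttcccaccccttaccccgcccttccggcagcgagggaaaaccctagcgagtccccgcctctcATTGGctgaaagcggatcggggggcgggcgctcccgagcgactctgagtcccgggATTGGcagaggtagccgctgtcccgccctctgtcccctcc
Mvk: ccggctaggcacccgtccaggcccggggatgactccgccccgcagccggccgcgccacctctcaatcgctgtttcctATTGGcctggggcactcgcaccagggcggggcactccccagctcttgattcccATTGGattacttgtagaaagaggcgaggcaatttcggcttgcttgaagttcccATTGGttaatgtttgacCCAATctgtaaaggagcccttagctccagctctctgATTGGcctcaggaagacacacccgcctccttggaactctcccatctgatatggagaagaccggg
Mvd: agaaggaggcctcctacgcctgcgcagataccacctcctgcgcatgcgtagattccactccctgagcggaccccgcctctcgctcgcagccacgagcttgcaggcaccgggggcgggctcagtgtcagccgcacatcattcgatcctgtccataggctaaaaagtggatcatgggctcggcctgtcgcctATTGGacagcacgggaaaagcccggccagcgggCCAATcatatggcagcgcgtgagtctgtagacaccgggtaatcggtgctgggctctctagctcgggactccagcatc

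In the Hmgcs1 window the sterol element letters TCACNCCAC begin at position −137 from the start, and CCAAT occurs 4 times. The Mvk window holds 5 copies of CCAAT and none of the sterol element letters. It also spans the start of Mmab, a gene of vitamin B12 metabolism that runs the other way and is known as an SREBP2 target with Mvk. The annotated starts of both genes lie 209 bases apart. Mmab (chromosome 5, 114431034 to 114444060) was lower, at 27.6, 28.0 and 28.2 CPM with INT-777 and 34.1, 35.6 and 36.8 CPM with DMSO (log2 −0.35 ± 0.05, edgeR adjusted p = 0.0301).

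The middle steps join farnesyl units into squalene and close the first sterol ring system. The 3 genes of these steps all lay below 0, between −0.19 and −0.09. Lss, lanosterol synthase, had 154, 149 and 122 CPM with INT-777 and 166, 169 and 150 CPM with DMSO. The DMSO library of day 3 lay below the INT-777 library of day 1, so the groups overlapped, while INT-777 was lower on each day by 0.11, 0.18 and 0.29 on the log2 scale. Its log2 change was −0.19 ± 0.09 (edgeR adjusted p = 0.369, and 0.00537 with the day block). Fdft1, squalene synthase, had 117, 121 and 138 CPM with INT-777 and 135, 133 and 139 CPM with DMSO. It passed in neither fit (log2 −0.11 ± 0.07, 95% interval −0.27 to 0.04), and it shares 18.3% of its exon length with Ctsb on the other strand. Sqle, squalene epoxidase, which catalyses a rate-controlling step, had 237, 227 and 244 CPM with INT-777 and 252, 247 and 255 CPM with DMSO. The Sqle groups did not overlap, but the difference was small and passed in neither fit (log2 −0.09 ± 0.05, edgeR adjusted p = 0.413, and 0.111 with the block).

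Of the 9 genes that turn lanosterol into cholesterol, 8 had log2 changes below 0 (median −0.13), and 4 were lower with the day block (against 10.3% of all genes). Cyp51, lanosterol demethylase (chromosome 5, 4081145 to 4104746), had 242, 250 and 264 CPM with INT-777 and 282, 284 and 292 CPM with DMSO. The groups were apart, with a log2 difference of −0.18 ± 0.05 (edgeR adjusted p = 0.163, and 0.00348 with the block). Nsdhl, a dehydrogenase of the demethylation steps (chromosome X, 72918557 to 72958514), had 106, 110 and 111 CPM with INT-777 and 129, 130 and 119 CPM with DMSO. Its groups were also apart, with a log2 difference of −0.21 ± 0.05 (edgeR adjusted p = 0.120, and 0.00356 with the block).

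Dhcr7, which reduces 7-dehydrocholesterol in the last step of 1 route to cholesterol (chromosome 7, 143823145 to 143848410), had 90.8, 87.8 and 82.7 CPM with INT-777 and 107, 112 and 103 CPM with DMSO. The groups were separate, and the log2 change of −0.30 ± 0.06 lay just outside the threshold without the block (edgeR adjusted p = 0.0560, and 0.000155 with it). Tm7sf2 and Lbr both encode sterol C14 reductases. Tm7sf2 had 25.4, 25.1 and 25.7 CPM with INT-777 and 31.2, 28.6 and 35.9 CPM with DMSO, with separate groups (log2 −0.33 ± 0.09, edgeR adjusted p = 0.128, and 0.00196 with the block). Lbr, which is also an anchor of chromatin at the nuclear envelope, had 198, 192 and 171 CPM with INT-777 and 191, 193 and 162 CPM with DMSO, with overlapping groups and a log2 change of 0.04 ± 0.09 (95% interval −0.16 to 0.24). The difference between the changes of Tm7sf2 and Lbr was not tested, and Tm7sf2 shares 12.1% of its exon length with Vps51 on the same strand.

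The other 4 genes of these steps passed in neither fit. The sterol oxidase Msmo1 had 194 to 225 CPM with INT-777 and 213 to 221 CPM with DMSO (log2 −0.07 ± 0.06). Hsd17b7, a ketone reductase, had 81.5 to 88.5 CPM with INT-777 and 80.6 to 95.7 CPM with DMSO (log2 −0.06 ± 0.07). The isomerase Ebp had 54.0 to 59.1 CPM with INT-777 and 58.9 to 68.8 CPM with DMSO (log2 −0.13 ± 0.08). For all of them the groups overlapped, as they did for the desaturase Sc5d, at 97.1 to 105 CPM with INT-777 and 104 to 109 CPM with DMSO (log2 −0.09 ± 0.05).

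**Figure D3:**
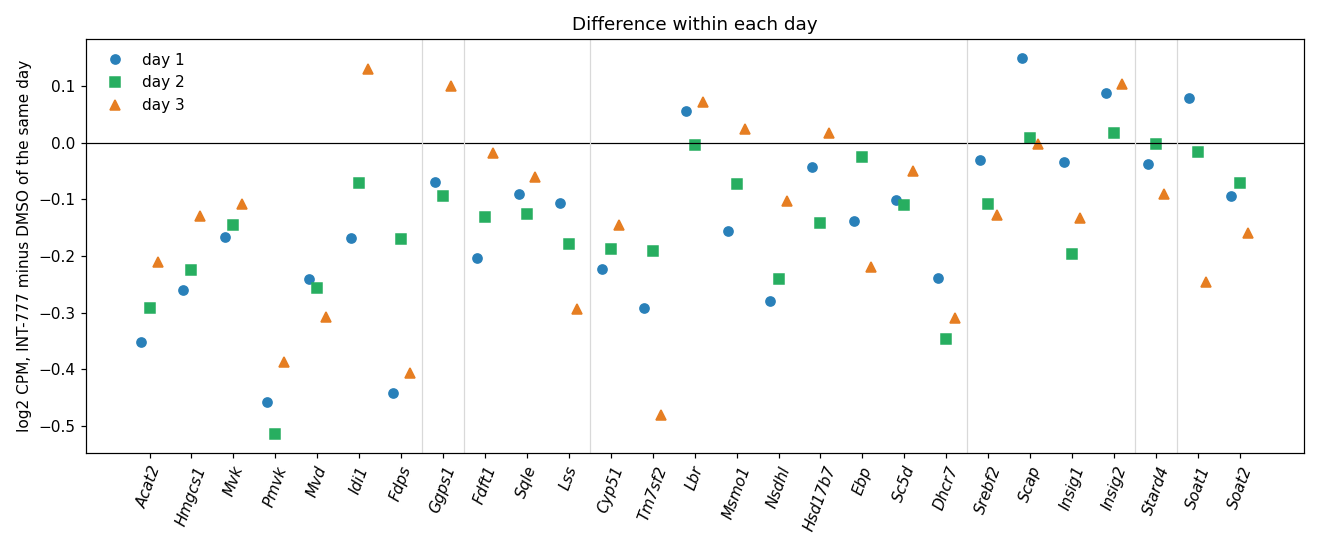
Difference in log2 CPM between INT-777 and DMSO of the same day (y axis) for each gene in pathway order (x axis), with a marker per day and light lines between functional groups. Pmvk lies at −0.46, −0.52 and −0.39, Idi1 is below 0 on days 1 and 2 and at 0.13 on day 3, and the control genes Srebf2 to Insig2 lie between −0.20 and 0.15.

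None of the genes that control, carry or esterify sterols passed in either fit. Srebf2, which encodes SREBP2 and is itself an SREBP2 target (chromosome 15, 82147181 to 82205379), had 448, 427 and 416 CPM with INT-777 and 458, 461 and 455 CPM with DMSO. The groups did not overlap, and the log2 change was −0.09 ± 0.05 (edgeR adjusted p = 0.450, and 0.140 with the block). Scap, the escort protein, had 99.7, 96.6 and 93.8 CPM with INT-777 and 89.8, 96.1 and 94.0 CPM with DMSO, which overlap (log2 0.05 ± 0.05, 95% interval −0.06 to 0.17). Another annotated transcript on the other strand covers 13.2% of its exon length, and with the counts of the reverse strand the Scap value was −0.02.

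Insig1, the sterol-responsive Insig gene, had 168, 159 and 153 CPM with INT-777 and 172, 182 and 168 CPM with DMSO. The INT-777 library of day 1 and the DMSO library of day 3 were level, so the groups touched, and the log2 change was −0.12 ± 0.06 (edgeR adjusted p = 0.341, and 0.0532 with the block). Insig2 had 24.2, 23.3 and 26.7 CPM with INT-777 and 22.7, 23.0 and 24.9 CPM with DMSO. It was the single member with INT-777 above DMSO on all 3 days, but its groups overlapped and it passed in neither fit (log2 0.07 ± 0.07, 95% interval −0.10 to 0.24).

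Stard4, a soluble sterol carrier raised by SREBP2, had 185, 177 and 174 CPM with INT-777 and 190, 177 and 186 CPM with DMSO, a log2 change of −0.04 ± 0.05. Soat1, the widely expressed sterol acyltransferase, had 201, 195 and 178 CPM with INT-777 and 190, 197 and 211 CPM with DMSO, with day 3 the lowest INT-777 library and the highest DMSO library (log2 −0.06 ± 0.07). Soat2, the acyltransferase of enterocytes and hepatocytes, had 13.5, 14.6 and 12.4 CPM with INT-777 and 14.5, 15.4 and 13.8 CPM with DMSO (log2 −0.11 ± 0.09, 95% interval −0.31 to 0.10).

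Levels were set side by side per length, as TPM, read pairs scaled by the summed length of all annotated exons and then by library. In INT-777 and DMSO cultures Cyp51 (185 ± 4.96 and 212 ± 2.09 TPM, SD, n = 3 each), Srebf2 (195 ± 10.9 and 209 ± 2.93 TPM) and Hmgcs1 (178 ± 2.38 and 207 ± 10.2 TPM) were the highest, followed by Insig1 (168 ± 10.9 and 184 ± 8.81 TPM). Srebf2 led with INT-777 and Cyp51 with DMSO. The mean ± SD ranges of neighbours in this order overlapped in both groups, except that Insig1 lay below Hmgcs1 with DMSO. Insig2 had 23.1 ± 1.37 TPM with INT-777 and 22.2 ± 0.917 TPM with DMSO, far below Insig1. Soat2 had 19.9 ± 1.87 and 21.6 ± 1.28 TPM, below Soat1 at 63.5 ± 5.14 and 66.7 ± 2.93 TPM. At the low end lay Ggps1 (16.6 ± 0.860 and 17.0 ± 0.325 TPM) and Fdps (5.34 ± 0.536 and 6.84 ± 0.993 TPM), of which the Fdps value is uncertain for the reason given above.

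**Figure D4:**
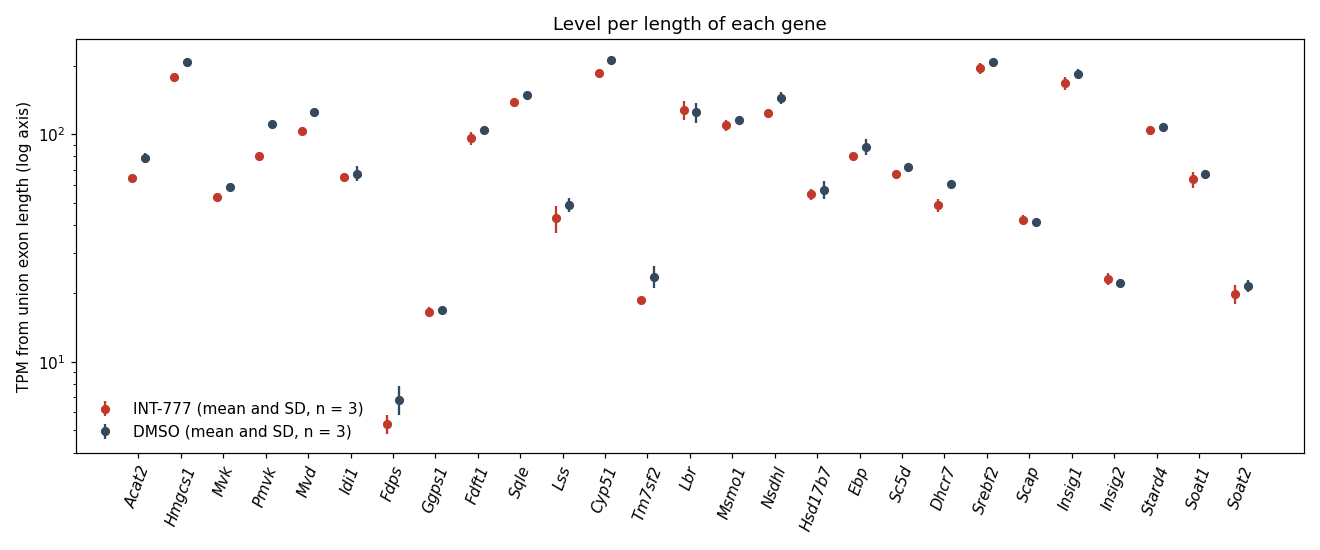
Level per length of each gene (TPM from union exon length, log axis) as mean and SD over 3 libraries, with INT-777 left of DMSO for each gene in pathway order. Levels run from 5.34 TPM for Fdps with INT-777 to 212 TPM for Cyp51 with DMSO, and the distance between genes is far larger than that between groups.

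Few of the 27 genes differed between the days of the sort. Lbr and Lss were the members that differed between days, both lower on day 3 (edgeR F-test of the day terms beside treatment, adjusted p = 0.00452 for Lbr and 0.00591 for Lss). That is 7.41% of the members, against a background of 20.5% of all genes (8.61% lower on day 3). The level of day 3 minus the mean of days 1 and 2 was −0.22 for Lbr and −0.23 for Lss on the log2 scale. Without single libraries the count of members that differed ran from 1 (without DMSO replicate 2) through 5 (without DMSO replicate 3) to 7 (without INT-777 replicate 3). The share of all genes that differed was not taken in these runs, so these counts have no background.

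Partners of the pathway and further SREBP2 targets were listed beside the members, and 15 of 17 could be tested. Without the block Mmab and Acss2, the cytosolic acetyl-CoA synthetase, fell and none rose. That is 13.3% of those tested, against 1.45% of all genes called and 0.763% lower in that fit. Acss2 had 35.8, 33.4 and 32.4 CPM with INT-777 and 42.6, 42.3 and 42.9 CPM with DMSO (log2 −0.33 ± 0.06, edgeR adjusted p = 0.0398). Both calls need most of the libraries. Leaving out any single library other than DMSO replicate 3 moved the edgeR adjusted p past the threshold, to between 0.0548 and 0.185 for Mmab and between 0.0694 and 0.241 for Acss2, while the log2 values stayed between −0.38 and −0.33 for Mmab and between −0.37 and −0.31 for Acss2. With reverse-strand counts the Acss2 value was −0.05 (edgeR adjusted p = 0.687) and the Mmab value −0.41 (adjusted p = 0.0233). The list median was −0.11. With the day block 6 of the 15 were lower and 2 higher (53.3% in all, against 21.3% of all genes). The lower genes included Mmab, Acss2, Acly, which supplies cytosolic acetyl-CoA, Tmem97 and the sterol synthesis scaffold Erg28, while Cyb5b and the mitochondrial thiolase Acat1 were higher.

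Other genes of SREBP control showed no common direction. None of the 14 passed edgeR's test without the block, 2 had an unadjusted p under 0.05 (14.3%, against 16.4% of all genes), the median was 0.02, and with the block 2 were higher, Mbtps2 and Rnf145 (14.3%, against 11.1% of all genes higher). Mbtps2, a protease that releases SREBP, had 56.3, 55.8 and 56.5 CPM with INT-777 and 51.7, 51.3 and 47.7 CPM with DMSO (log2 0.16 ± 0.05, edgeR adjusted p = 0.196, and 0.0269 with the block). Srebf1, the gene of the SREBP that acts mainly on fatty acid synthesis, had 107, 105 and 104 CPM with INT-777 and 111, 112 and 118 CPM with DMSO, and passed in neither fit (log2 −0.11 ± 0.05).

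Of 16 enzymes that use isoprenoids, in dolichol and ubiquinone synthesis and protein prenylation, 11 had log2 changes above 0 and 5 below. None passed edgeR's test without the block, 4 had an unadjusted p under 0.05 (25.0%, against 16.4% of all genes), and the median was 0.07. With the block 5 were higher and none lower (31.2%, against 11.1% of all genes higher). These were Dolk, Rabggtb, Rce1, Fnta and Cox10. Dolk, dolichol kinase, had 22.7, 22.0 and 23.3 CPM with INT-777 and 19.1, 19.3 and 19.1 CPM with DMSO (log2 0.24 ± 0.06, edgeR adjusted p = 0.105, and 0.0118 with the block). Rabggtb, a subunit of the enzyme that prenylates Rab proteins, had 72.8, 73.2 and 70.3 CPM with INT-777 and 64.5, 64.5 and 57.3 CPM with DMSO (log2 0.22 ± 0.06, edgeR adjusted p = 0.154, and 0.00356 with the block).

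Genes of sterol uptake, movement and ester hydrolysis moved both ways. None of 19 tested passed edgeR's test without the block, and 4 had an unadjusted p under 0.05 (21.1%, against 16.4% of all genes). With the block 5 were lower and 2 higher (36.8%, against 21.3% of all genes). Nceh1, a cholesteryl ester hydrolase, had 50.8, 47.0 and 43.7 CPM with INT-777 and 57.5, 59.4 and 63.1 CPM with DMSO (log2 −0.35 ± 0.07, edgeR adjusted p = 0.0662, and 0.000832 with the block). Scarb1, a lipoprotein receptor, had 66.8, 66.2 and 64.5 CPM with INT-777 and 57.4, 56.1 and 48.6 CPM with DMSO (log2 0.29 ± 0.07, edgeR adjusted p = 0.116, and 0.000851 with the block). Npc1l1, the cholesterol importer of the enterocyte brush border, was named after its values were seen. It had 18.1, 19.9 and 24.6 CPM with INT-777 and 28.6, 31.7 and 41.5 CPM with DMSO (log2 −0.70 ± 0.17, edgeR adjusted p = 0.120, and 6.91e-07 with the block). The summed enterocyte markers given above were lower with INT-777 too, although 3 of the 9 tested lay above 0. A link between these markers and Npc1l1 was not tested.

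**Figure D5:**
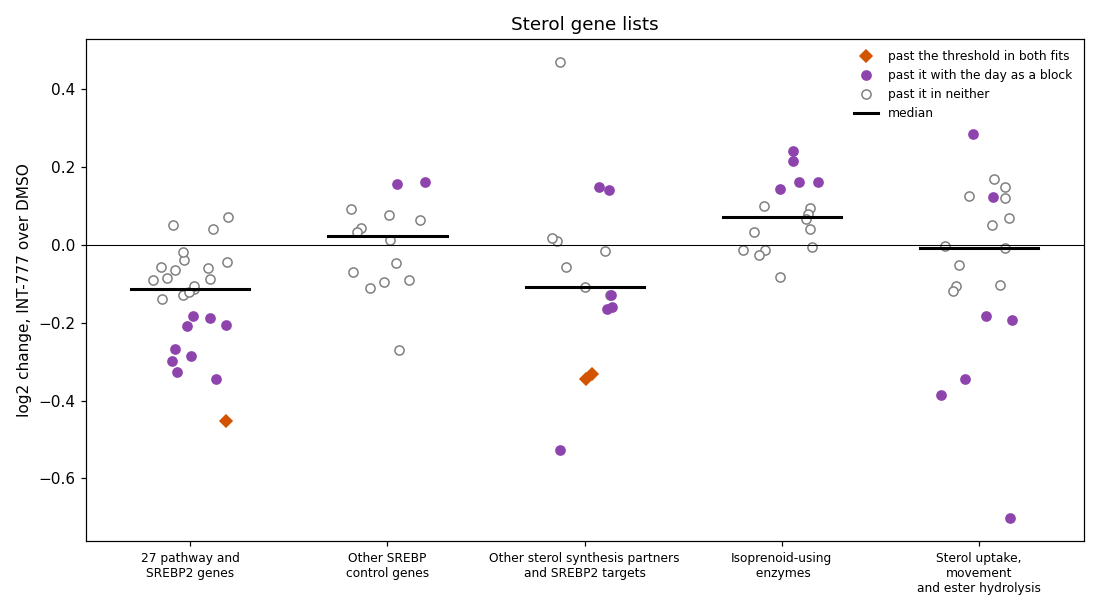
Fitted log2 change of each tested gene (INT-777 over DMSO, y axis) in the 27 pathway genes and 4 further sterol lists (x axis, points spread sideways for sight), with a black bar at the list median. Orange diamonds (Pmvk, Mmab and Acss2) passed in both fits and purple points with the day block; the medians are −0.11, 0.02, −0.11, 0.07 and −0.01 from left to right.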

How the data were processed

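RNA was measured in 6 bulk libraries, 3 of INT-777 and 3 of DMSO cultures. The authors deposited raw counts, whole read pairs for each gene, in the layout that STAR writes, with no normalisation; per the submitters' processing notes, FastQC, STAR 2.73a and edgeR 3.24.3 were used and the builds are named GRCm38 and mm10. No source used here gives the version of the annotation. The column that ignores strand was used. Read pairs on genes that overlap cannot be told apart there. Of 54838 gene IDs, 54809 matched GENCODE M21.

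The test was edgeR 4.0.16 in R 4.3.3 (filterByExpr by group, TMM scaling, two-sided robust quasi-likelihood), fitted with treatment alone or with the day as a block. Each standard error is |log2 change| divided by the root of the F value, and 95% intervals use the total degrees of freedom of the fit. Differences within a day use log2 CPM with a prior count of 2. DESeq2 1.42.0 and limma-voom (limma 3.58.1) were alternatives. Figures were made with matplotlib 3.10.9.

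The labels tie a replicate number to a day of sorting, which pairs the libraries. Over genes, the deviations of same-day libraries from their groups had correlations of 0.329, 0.369 and 0.632 for days 1, 2 and 3. Across days 1 and 2 they were much the same, at 0.336 (INT-777 day 1 with DMSO day 2) and 0.363 (INT-777 day 2 with DMSO day 1). Those of day 3 with the other days were −0.487 to −0.435. The correlations thus set day 3 apart but do not tell day 1 from day 2. Libraries of days 1 and 2 were alike, with a chi-square averaging 3.21 per gene (INT-777) and 2.44 (DMSO), above the value near 1 of counting noise, and were kept as separate replicates.

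The members and lists were chosen with earlier results of these data known. Named are all 27 members and, in each further list, the genes past the threshold without the block and the 2 of smallest p; Npc1l1 and the genes listed by name as past the threshold with the block were added after their values were seen. Some results of the further lists are not reported here. Of the further lists, Faxdc2 was not matched and Idi2 and Cav1 were too low to test.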

Additional observations from a re-analysis of the deposited data

How the results depend on the processing

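The direction was steadier than the calls. Under every alternative run, 22 to 25 of the 27 members had log2 changes below 0 and none was called higher. The count of lower members, 1 with treatment alone, was 10 with the replicate block, 8 with DESeq2 and 5 with no low-count filter. It was 4 with a filter of 1 CPM in 3 libraries, and 1 with RLE scaling, limma-voom or reverse-strand counts. The shares of all genes called were 1.45% with treatment alone, 21.3% with the block, 5.83% with DESeq2 and 1.5% with no filter. They were 1.85% with the 1 CPM filter, 1.34% with RLE scaling or limma-voom, and 1.24% with reverse-strand counts. Among alternatives chosen after seeing the data, the count of lower members was 4 with total-count scaling (1.43% of all genes called). With the replicate block it was 9 with DESeq2, 10 with limma-voom, 13 with total-count scaling, 12 with RLE scaling, 10 without day 1 or without day 2, and 17 without day 3. These runs with the block called 12 to 24.1% of all genes. Leaving out a library or a day gave 0 to 18 lower members, and 1 to 7 that differ between days (library only, with no background of all genes). Over all genes, the higher and lower counts of 110 and 122 were 1770 and 1645 with the replicate block, 332 and 409 with DESeq2, 186 and 249 with no low-count filter, and 0 to 2225 and 0 to 2067 with a library or day left out. The cause was not tested.

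Small values changed sign. Scap was −0.018 with reverse-strand counts. Idi1 was 0.00074 without DMSO replicate 1 and 0.029 without day 1 (range −0.127 to 0.029). Ggps1 was 0.015 without INT-777 replicate 1, 0.0064 without day 1 and 0.0045 without day 2 (range −0.089 to 0.015). Lbr was −0.048 without DMSO replicate 3 and −0.0030 without INT-777 replicate 1 (range −0.048 to 0.094), and Soat1 was 0.024 without day 3 (range −0.129 to 0.024). None of these 5 genes passed in either fit, and 3 libraries a group limit the precision.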
